A study of Mus musculus with 9 samples.

Results

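The 8 genes described here encode the catalytic and specific subunits of the MLL complexes, which methylate histone H3 at lysine 4 (H3K4). They are Kmt2a, Kmt2b, Kmt2c, Kmt2d, Men1, Kdm6a, Paxip1 and Ncoa6, which were taken by name from the 55413 genes of GENCODE M21, of which 21938 are protein-coding. All 8 were found. For each, the non-methylated islands (NMIs) at the 5′ end of every annotated transcript were collected with their width, their place relative to the transcription start site (TSS) and any further NMIs in the gene body.

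The series holds 9 samples of C127 cells, a mouse mammary epithelial line grown without treatment: 1 BioCAP library, 3 ATAC libraries, 3 libraries of RNA labelled with 4-thiouridine and 2 inputs. BioCAP uses the CXXC domain of KDM2B, immobilised on beads, to pull non-methylated CpG DNA out of sheared genomic DNA. Only the list of 13491 NMIs made from the BioCAP library is used here. The ATAC, RNA and input samples were not analysed here. Each entry of the list is a genomic position without any measure of enrichment, so the read depth is unknown. The values come from 1 library of 1 cell line without replicates, and no test was made. Differences are given as values only. A gene is said to lack an NMI when this list holds none for it, and its methylation was not measured. As a check of the labelled cell type, 1 of 9 mammary epithelial marker genes had an NMI at a TSS (Gata3, with 7934 bp), whereas Krt8, Krt18, Krt5, Krt14, Epcam, Cdh1, Elf5 and Esr1 had none. All 5 mesenchymal markers (Vim, Cdh2, Zeb1, Fn1 and Col1a1) had one, of 1386 to 3054 bp, and the embryonic stem cell markers Pou5f1 and Nanog had none. The share over all protein-coding genes was 47.5%. An NMI is not a measure of expression, so these counts neither bear out nor contradict the label.

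Mammals build several H3K4 methyltransferase complexes around a common core of WDR5, RBBP5, ASH2L and DPY30. KMT2A and KMT2B (MLL1 and MLL2) carry a CXXC domain that recognises non-methylated CpG DNA, the same kind of DNA that BioCAP isolates, and are tethered to chromatin together with menin, the product of Men1. KMT2C and KMT2D (MLL3 and MLL4) are known for H3K4 monomethylation at enhancers and work with UTX (Kdm6a, an H3K27 demethylase), PTIP (Paxip1) and NCOA6. CpG islands, the CpG-dense stretches that surround many mammalian promoters, are mostly free of DNA methylation and form the substrate that CXXC proteins read. The genes of these complexes, among them those of the CXXC proteins KMT2A and KMT2B, can thus themselves be placed on the map of non-methylated DNA.

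Upstream sequence is shown for 3 members that span the range of CpG content among them, to show what the captured DNA looks like. Each run is the 250 bases before the RefSeq start on GRCm38.p6, read 5′ to 3′ on the gene's strand, with every CpG in capitals. Kmt2a lies at chr9:44881290-44881539 (minus strand, 29 CpG), Kmt2c at chr5:25498784-25499033 (minus strand, 48 CpG) and Men1 at chr19:6334729-6334978 (plus strand, 8 CpG). The Kmt2a and Kmt2c runs lie wholly inside an NMI, and the NMI of Men1 begins at 6334733, inside the printed run.
Kmt2a: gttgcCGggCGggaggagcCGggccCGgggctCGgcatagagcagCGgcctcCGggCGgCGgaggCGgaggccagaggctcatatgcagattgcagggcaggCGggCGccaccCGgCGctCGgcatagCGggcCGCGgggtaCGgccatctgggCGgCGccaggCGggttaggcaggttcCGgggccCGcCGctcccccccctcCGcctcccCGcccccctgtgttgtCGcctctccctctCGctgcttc
Kmt2c: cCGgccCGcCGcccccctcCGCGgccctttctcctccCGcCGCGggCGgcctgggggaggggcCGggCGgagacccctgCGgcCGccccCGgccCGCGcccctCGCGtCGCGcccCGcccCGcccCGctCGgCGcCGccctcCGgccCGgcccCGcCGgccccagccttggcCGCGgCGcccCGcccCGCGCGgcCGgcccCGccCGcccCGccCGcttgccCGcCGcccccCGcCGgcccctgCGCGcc
Men1: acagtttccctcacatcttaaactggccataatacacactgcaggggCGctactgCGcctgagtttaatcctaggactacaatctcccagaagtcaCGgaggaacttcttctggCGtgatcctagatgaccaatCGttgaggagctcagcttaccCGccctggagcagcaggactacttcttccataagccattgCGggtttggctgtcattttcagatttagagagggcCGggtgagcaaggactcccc

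Ncoa6 has annotated coding starts both inside and outside an NMI, and the upstream bases of both kinds are set side by side to show the contrast. The outermost start is preceded by chr2:155473895-155474144 (minus strand, GRCm38 genome), with 26 CpG and inside the NMI. The internal start, which is the only Ncoa6 entry of the RefSeq promoter table, is preceded by chr2:155440784-155441033 (minus strand), with 1 CpG and no NMI.
Ncoa6 outermost start: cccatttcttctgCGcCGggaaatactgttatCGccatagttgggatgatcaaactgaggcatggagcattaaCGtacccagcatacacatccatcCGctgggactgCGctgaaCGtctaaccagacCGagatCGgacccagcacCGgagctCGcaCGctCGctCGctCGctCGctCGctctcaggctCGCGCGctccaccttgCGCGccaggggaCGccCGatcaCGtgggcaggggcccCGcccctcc
Ncoa6 internal start: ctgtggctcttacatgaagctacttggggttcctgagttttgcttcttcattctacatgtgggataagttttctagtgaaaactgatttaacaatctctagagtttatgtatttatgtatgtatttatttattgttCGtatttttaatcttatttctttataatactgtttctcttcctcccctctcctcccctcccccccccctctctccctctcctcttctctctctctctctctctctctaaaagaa

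All 8 genes had an NMI at a TSS. This compares with 10425 of the 21938 protein-coding genes, or 47.5% (exact 95% interval 46.9% to 48.2%, which covers counting error only). In all 8 the outermost annotated TSS lay inside the NMI, as it did in 89.5% of protein-coding genes with an NMI. No member had more than 1 NMI at its TSSs, against 3.91% of those genes. The NMIs of the members were 1241 to 2996 bp wide with a median of 2059 bp, and all 8 were wider than the median of 1210 bp (quartiles 921 and 1592 bp) over the 10425 genes. The median over all NMIs of the list, with or without a gene, was 990 bp (114 to 11019 bp). The members differed in how far above the median they stood, and 5 were above the upper quartile. Kmt2a, Kmt2b, Kmt2c and Kdm6a were wider than 93.9% to 98.0% of these genes, and Kmt2d than 84.2%. Paxip1, Ncoa6 and Men1 were wider than 52.4% to 64.4%, with the narrowest, Men1, close to the median.

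**Figure D1:**
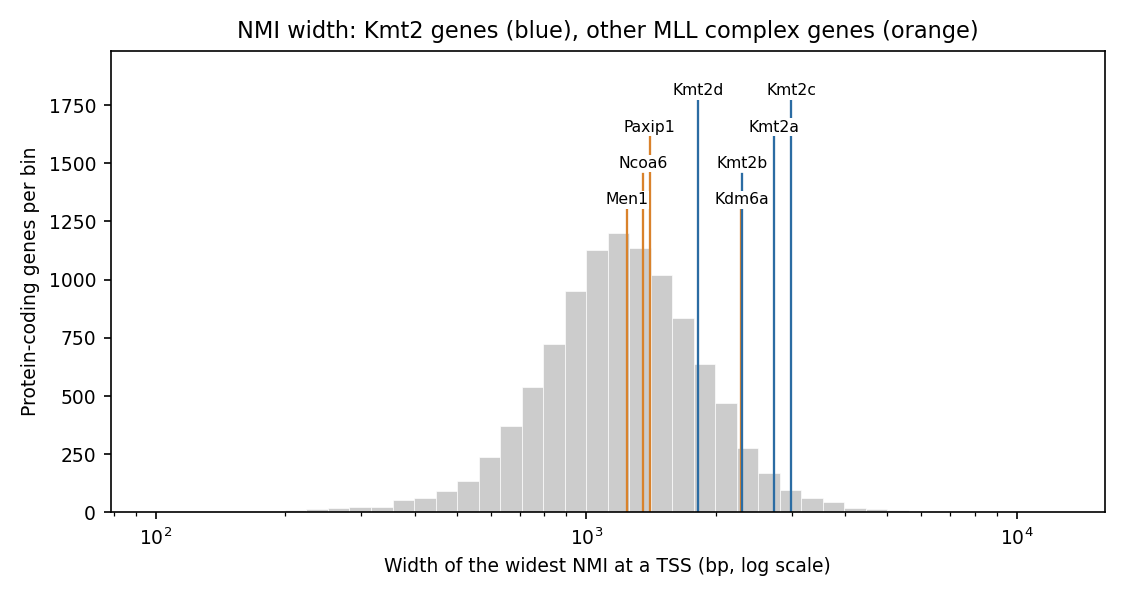
Width of the widest NMI at a TSS for the 10425 protein-coding genes with an NMI (grey bars, genes per bin, log axis in bp), with the 4 Kmt2 genes (blue lines) and the 4 other MLL complex genes (orange lines) marked. The Kmt2 genes lie between 1823 and 2996 bp, and Men1, Ncoa6 and Paxip1 lie near the peak of the distribution at 1241 to 1406 bp.

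Kmt2a encodes MLL1, the methyltransferase that is fused to other proteins in acute leukaemias and maintains Hox gene expression. The gene covers chr9:44803355-44881296 on the minus strand, and its NMI lay at chr9:44880150-44882881. This NMI of 2732 bp was wider than that of 97.3% of protein-coding genes with an NMI. It reached 1585 bp upstream of the outermost TSS and 1147 bp into the gene, where it took in 448 bp of exon, 426 bp of which were coding, and 699 bp of intron. It held 199 CpGs, or 7.28 per 100 bp, with a GC content of 65.9% and an observed/expected CpG ratio of 0.681, the ratio of the CpG count to that foreseen from the C and G content. The 500 bp beyond its upstream edge still held 4.20 CpG per 100 bp, and the 500 bp beyond its downstream edge held 1.80.

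Kmt2b encodes MLL2, the paralogue that methylates H3K4 at many CpG island promoters in early development. The gene (chr7:30568858-30588726, minus strand) had an NMI of 2306 bp at chr7:30587595-30589900, wider than that of 94.1% of genes. The interval was almost symmetric about the TSS, with 1174 bp upstream and 1132 bp downstream, of which 372 bp were exonic, 363 bp of them coding. CpG density was 6.94 per 100 bp, and the observed/expected ratio was 0.706. As at Kmt2a, the upstream flank was richer in CpG than the downstream flank, at 4.20 against 1.60 per 100 bp.

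Kmt2c encodes MLL3 and was the longest member at 227.0 kb (chr5:25271798-25498783, minus strand). Its NMI at chr5:25497391-25500386 was the widest among the members at 2996 bp, rank 206 of 10425, and extended 1603 bp upstream and 1393 bp downstream. It was also among the most CpG-rich, with 319 CpGs or 10.6 per 100 bp, more than in 95.1% of genes, and an observed/expected ratio of 0.976, higher than in 96.4%. The flanks held 1.80 CpG per 100 bp upstream and 1 per 100 bp downstream, so the interval ended where CpG density fell. The NMI covered 0.614% of the length of the gene and 9.59% of its 1397 CpGs.

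Kmt2d encodes MLL4, and lies at chr15:98831669-98871204 on the minus strand. Its NMI (chr15:98870904-98872726, 1823 bp) stood out for its position: 1522 bp lay upstream of the outermost TSS and 301 bp downstream. The downstream part made up 16.5% of the NMI, and 1.18% of protein-coding genes with an NMI had a smaller downstream share. The interval held no coding base, with 191 bp of exon and 110 bp of intron. Its densest 100 bp held 20 CpGs and lay 400 to 301 bp upstream of the TSS, whereas the densest 100 bp of the other 7 members began between 100 bp upstream and 500 bp downstream.

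The same 4 Kmt2 genes shared their NMI with the 5′ end of another annotated gene. An NMI that also holds a TSS of another gene was found for 4 of 8 members, none of them outside the Kmt2 family, against 35.4% of protein-coding genes with an NMI. At Kmt2a this was AC061963.1, an antisense RNA on the other strand with 2 TSSs in the NMI, the nearer of them 432 bp upstream. At Kmt2b it was the hairpin of the microRNA Mir3569, whose annotated 5′ end lies 654 bp upstream on the other strand and need not be the start of its primary transcript. At Kmt2c it was the long noncoding RNA 4831440E17Rik, 284 bp upstream on the other strand. At Kmt2d the long noncoding RNA 5730414N17Rik began 1440 bp upstream on the other strand and Gm49437, an unvetted transcript model, 1409 bp upstream on the same strand. Across protein-coding genes with an NMI, the NMI held TSSs of both strands in 32.7%.

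The upstream extents follow the same division. The NMIs of the Kmt2 genes reached 1174 to 1603 bp upstream of the TSS with a median of 1553.5 bp, and those of Men1, Kdm6a, Paxip1 and Ncoa6 reached 246 to 831 bp with a median of 387 bp. The 2 groups did not overlap in upstream extent. Their downstream extents did, with medians of 1139.5 and 1014 bp. Over the 10425 genes the median upstream extent was 579 bp where the NMI was shared with another gene and 329 bp where it was not, and the median downstream extents were 758 and 744 bp. An upstream extent at least as long as that of Kmt2b was found in 504 genes (4.83%), and 366 of these (72.6%) shared the NMI with another gene. Over the 3690 genes with a shared NMI the upper quartile of upstream extent was 858 bp, and every Kmt2 gene lay above it. Sharing was defined by a TSS of another gene inside the NMI, so a longer NMI can take in more such 5′ ends. Sharing and upstream extent are therefore not independent measures. Whether the neighbouring 5′ ends have a part in the upstream extent at the Kmt2 genes was not tested.

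**Figure D2:**
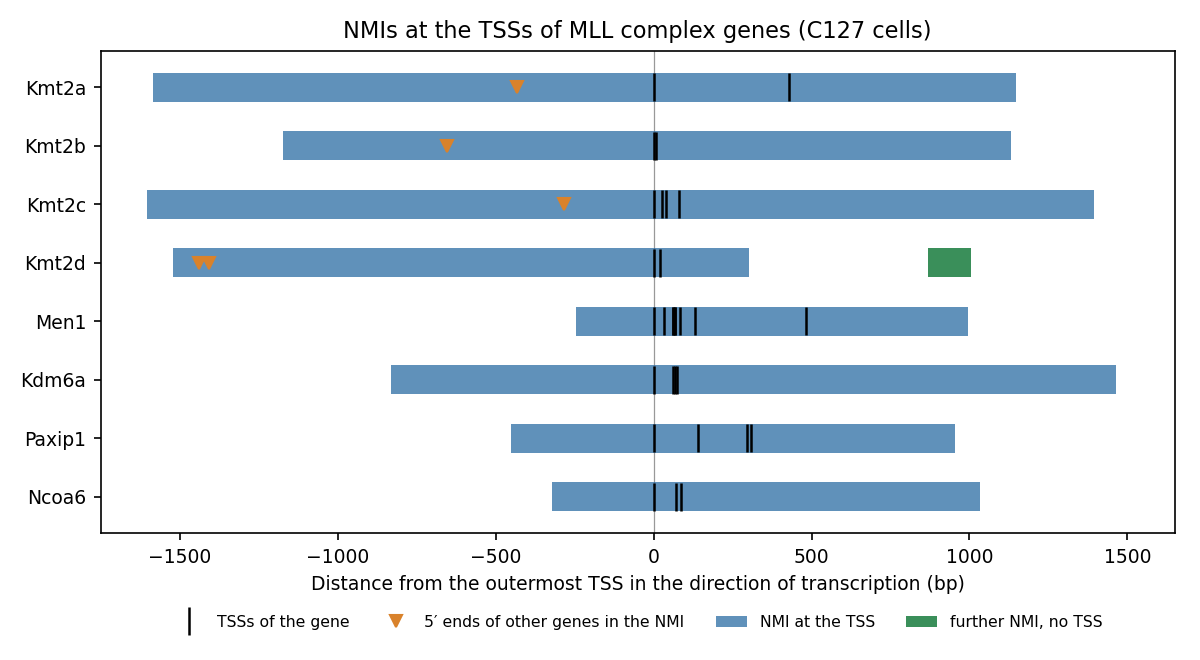
NMIs at the TSSs of the 8 genes, drawn to scale in bp from the outermost TSS in the direction of transcription (blue bars). Black ticks are the TSSs of each gene inside the NMI, and orange triangles the nearest 5′ end of each other gene in the NMI. The further NMI of Kmt2d that holds no TSS is green. The 4 Kmt2 genes extend 1174 to 1603 bp to the left of the TSS, and the other 4 extend 246 to 831 bp.

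Men1 encodes menin, the tumour suppressor of multiple endocrine neoplasia and a partner of MLL1 and MLL2. It was the shortest member at 5.91 kb (chr19:6334979-6340891, plus strand). Its NMI at chr19:6334733-6335973 was the narrowest of the 8 at 1241 bp and the poorest in CpG at 5.72 per 100 bp, denser than the NMIs of 25.7% of genes, with an observed/expected ratio of 0.628. It reached 246 bp upstream and 995 bp downstream, so that 80.2% lay inside the gene, where 942 bp were exonic and 478 bp coding. It contained no repeat-masked base. Because the gene is short, the NMI took up 16.8% of its length and 63 of its 155 CpGs (40.6%), the highest share among the members.

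Kdm6a encodes UTX, the H3K27 demethylase of the MLL3 and MLL4 complexes, and lies at chrX:18162575-18279936 on the plus strand. UTX is one of the proteins whose genes escape X inactivation in mouse. Its NMI at chrX:18161744-18164038 was 2295 bp wide, with 831 bp upstream and 1464 bp downstream, the longest reach into a gene among the members. CpG density was 7.97 per 100 bp, and the flanks held 0.60 and 1.2 CpG per 100 bp. Of the 948 protein-coding genes on X, 257 (27.1%) had an NMI, with a median width of 935 bp, and Kdm6a ranked 6 in width behind Stag2, Pcdh19, Rps6ka3, Hcfc1 and Usp9x. The nearest NMIs in the list were 1541.8 kb away on its upstream side, at Maoa, and 2261.1 kb away on its downstream side, at Jade3, the longest gaps around any member.

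Paxip1 encodes PTIP, a BRCT-domain protein, and lies at chr5:27740080-27791691 on the minus strand. Its NMI of 1406 bp (chr5:27790739-27792144) reached 453 bp upstream and 953 bp downstream, and held 9.46 CpG per 100 bp with an observed/expected ratio of 0.936. The CpG density exceeded that of 87.8% of genes although the width exceeded that of 64.4%. The neighbouring NMIs lay 278.4 kb upstream, at Gm26608 and Insig1, and 775.1 kb downstream.

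Ncoa6 encodes a coactivator of nuclear receptors and lies at chr2:155390656-155473894 on the minus strand. Its NMI at chr2:155472862-155474215 was 1354 bp wide, with 321 bp upstream and 1033 bp downstream. With 10.6 CpG per 100 bp and a GC content of 69.9%, it was denser in CpG than that of 94.8% of genes and richer in GC than that of 95.8%, although its width exceeded that of 60.7%. The part inside the gene held 255 bp of exon and 778 bp of intron and no coding base, so the whole NMI lay upstream of the coding sequence.

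Width and CpG density were thus combined differently in different members. Kmt2a and Kmt2b had wide NMIs of middling density, near 7 CpG per 100 bp. Ncoa6 and Paxip1 had narrower and denser NMIs, and Kmt2c was both wide and dense. The median density of the members was 8.10 CpG per 100 bp against 6.86 over the 10425 genes, and 7 of 8 lay above that median. GC content stood at 64.8% against 60.6% (7 of 8 above), and the observed/expected ratio at 0.789 against 0.764 (4 of 8 above). The downstream share of the NMI was 56.4% in the members and 65.5% in all, with 3 of 8 above. Repeat-masked bases made up 9.37% of the members' NMIs (median, 0% at Men1 to 10.8% at Kmt2a) and 5.68% over all.

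**Figure D3:**
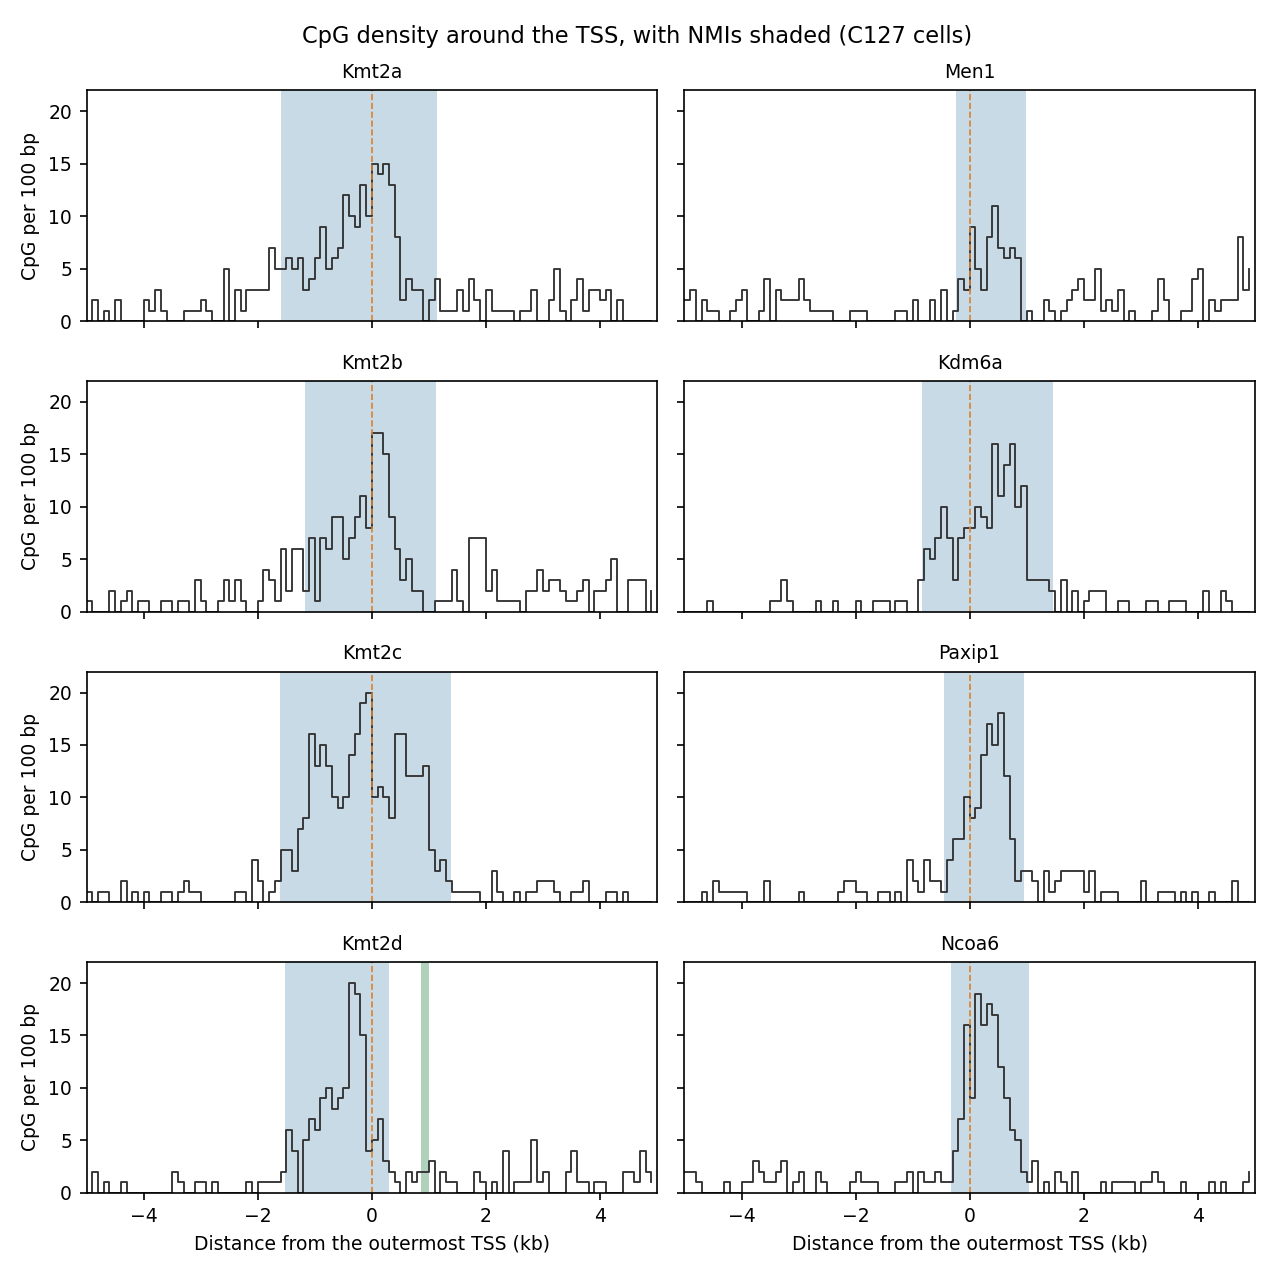
CpG count in each 100 bp from 5 kb upstream to 5 kb downstream of the outermost TSS (dashed line) of the 8 genes, with the NMI at the TSS shaded blue and the further NMI of Kmt2d shaded green. The densest 100 bp of each gene, with 11 CpGs at Men1 to 20 at Kmt2c and Kmt2d, lie inside the blue NMI.

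The profile of CpG density matched the edges of the NMIs more closely at some genes than at others. Bins of 100 bp with at least 5 CpGs lay only inside the NMI at Kmt2c (26 bins), Kdm6a (17), Paxip1 (11) and Ncoa6 (11) within 5 kb of the TSS. At Kmt2b, 7 of 23 such bins lay outside, and at Kmt2a 4 of 23 did, with up to 7 CpGs at both. At Men1, 4 of 12 bins lay outside, with up to 8 CpGs against 11 in its densest bin. At Kmt2d it was 1 of 15, with 5 CpGs.

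The 8 genes have 61 distinct annotated TSSs, and 30 of these (49.2%) lay in an NMI. Over all protein-coding genes with an NMI the share was 59.5%. The count was 2 of 4 for Kmt2a, 2 of 8 for Kmt2b, 4 of 8 for Kmt2c, 2 of 5 for Kmt2d, 9 of 12 for Men1, 4 of 9 for Kdm6a, 4 of 7 for Paxip1 and 3 of 8 for Ncoa6. Inside each NMI the TSSs were clustered, from a spread of 9 bp at Kmt2b to 482 bp at Men1. By type, 26 of 37 protein-coding transcripts started in an NMI (70.3%, against 75.2% over all genes with an NMI). Transcripts with a retained intron did so in 5 of 19 cases (26.3%, against 41.2%), and those marked for nonsense-mediated decay in 2 of 6 (33.3%, against 69.5%). Processed transcripts did so in 2 of 4 cases (50%, against 43.3%).

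The TSSs outside an NMI were poor in CpG. Within 250 bp of a TSS, CpG density was 8.58 per 100 bp (median, range 4.79 to 14.6) for the 30 TSSs in an NMI and 1.40 (0 to 4.39) for the 31 outside, with no overlap between the ranges. Over all genes with an NMI the medians were 8.38 and 1.40, and the ranges overlapped, since values inside an NMI began at 0.998 and values outside reached 18.2. The highest density outside an NMI, 4.39, was that of a Men1 start 4868 bp into the gene, and the lowest inside, 4.79, was shared by several other Men1 starts.

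**Figure D4:**
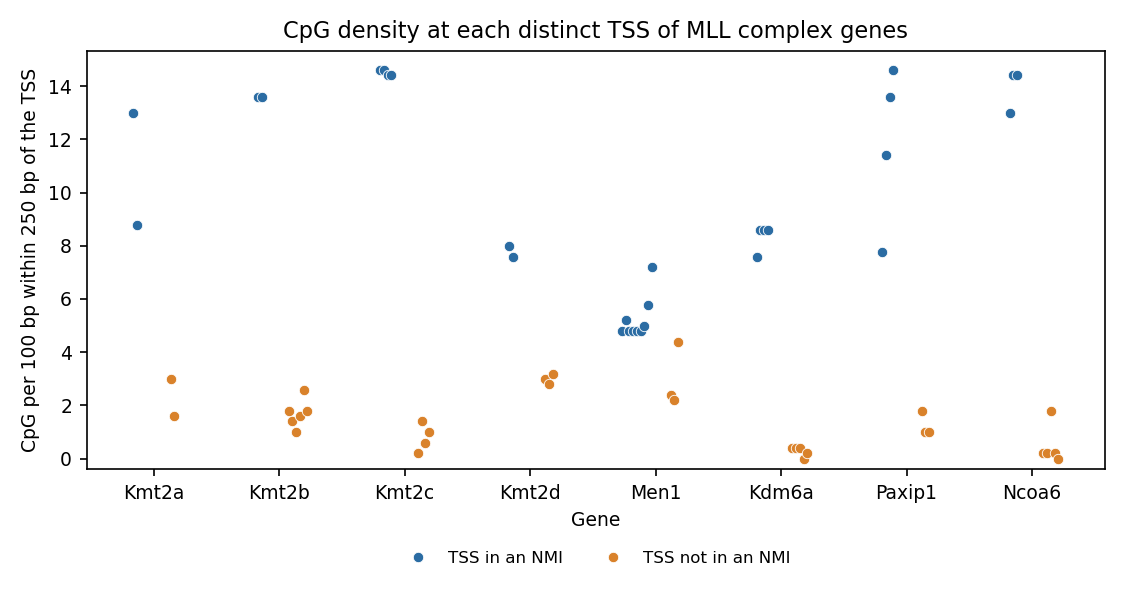
CpG per 100 bp within 250 bp of each of the 61 distinct TSSs of the 8 genes, with TSSs in an NMI in blue and the others in orange. The 30 blue points lie between 4.79 and 14.6 and the 31 orange points between 0 and 4.39.

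Of the 31 TSSs without an NMI, 11 belong to protein-coding transcripts. The internal starts Ncoa6-201 and Ncoa6-202, whose upstream bases are printed above, lie 33.1 kb inside the gene and at least 32077 bp from the nearest NMI, with 0.20 CpG per 100 bp. Kmt2c-202 and Kmt2c-208 start 190.2 and 198.7 kb downstream of the outermost TSS, with 0.20 and 1.40 CpG per 100 bp. Kdm6a-206, Kdm6a-207 and Kdm6a-208 start 83.5 to 83.7 kb into the gene, each with 0.399 CpG per 100 bp. The shortest distances from an NMI were those of Paxip1-206, a transcript with a retained intron at 366 bp, and of a protein-coding Men1 transcript at 937 bp.

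In the RefSeq table of 32851 mouse promoters (GRCm38.p6, 250 bases before to 50 after the start), 7 members had 9 entries, of which 8 lay in an NMI. These held 11 to 56 CpGs, with Kmt2c at 56 above 99.8% of promoters, Kmt2a at 36 above 93.8% and Men1 at 11 to 16 above 58.6% to 67%. The Ncoa6 entry at the internal start held 1 CpG, above 5.43%, whereas the window of the same length at the outermost TSS held 32, above 90.5%. The median over all promoters was 7.

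Short motifs, none of which is contained in another, were searched on both strands of these windows. The GC box GGGCGG was present in 8 of 9 entries, all but the internal Ncoa6 start, and in 35.7% of all promoters, as well as in the window at the outermost Ncoa6 TSS. The 3 Men1 windows overlap along most of their length, so the 8 entries stand for Kmt2a, Kmt2c, Kmt2d, Men1, Kdm6a and Paxip1. The motif holds a CpG, and these entries held 11 to 56 CpGs against a median of 7 over all promoters. The box CCAAT was found in 4 entries (the 3 of Men1 and the internal Ncoa6 start, 37.4% of all promoters), and TATAAA in 1, the internal Ncoa6 start (13.6%). The E-box CACGTG was present at Kdm6a (7.15% of all) and in the window at the outermost Ncoa6 TSS, and the NRF1 motif GCGCATGC at Paxip1 (2.71%). The ETS motif CCGGAAG and the YY1 motif AAGATGGC were in none (8.86% and 2.75% of all). A match is a string of letters and not a binding site.

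Beyond the promoters, 3 further NMIs overlapped 2 of the 8 genes. Of protein-coding genes with an NMI, 7.88% overlapped a further NMI without a TSS of their own. The share was higher in longer genes, from 5.44% of genes of 5 to 25 kb to 8.23% at 25 to 100 kb and 15.6% at 100 to 250 kb. Kmt2c and Kdm6a, the members in the longest class, had none. In 2 of the 3 cases the further NMI was the promoter NMI of a neighbour that ran into the 3′ end of the member. At Kmt2d it was the NMI of Prkag1, a gene for an AMP-activated kinase subunit (chr15:98830717-98831940, 1224 bp), which covered the last 272 bp of Kmt2d. At Men1 it was the NMI of Map4k2, a kinase gene (chr19:6340876-6341808, 933 bp), which covered the last 16 bp.

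The remaining further NMI lay in an intron of Kmt2d and held no annotated TSS. Its whole sequence is shown because it was much poorer in CpG than the promoter NMIs. It is chr15:98870199-98870335, read 5′ to 3′ on the minus strand with CpG in capitals, 137 bp long with 3 CpGs.
Kmt2d intronic NMI: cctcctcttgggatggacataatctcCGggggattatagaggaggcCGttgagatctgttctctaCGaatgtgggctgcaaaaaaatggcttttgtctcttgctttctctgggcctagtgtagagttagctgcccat
It began 869 bp downstream of the TSS, past a gap of 568 bp from the promoter NMI. With 2.19 CpG per 100 bp, a GC content of 48.9% and an observed/expected ratio of 0.373, it stood below all 8 promoter NMIs on each of these measures. Of all NMIs in the list, 2.58% were narrower. The list gives no height, so its enrichment over background is not known.

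Sequence-based prediction placed 11 CpG islands in the 8 genes, using windows of 500 bp and minimums of 55% for GC content and 0.65 for observed/expected CpG that each window had to meet. Passing windows were merged, and a merged island as a whole can fall below these minimums, as 2 of the 11 did in observed/expected ratio (0.633 for the island at the Men1 start and 0.637 for one in Kmt2d). An NMI overlapped 10 of the 11 islands, against 83.1% of predicted islands in protein-coding genes with an NMI. Of the 11, 8 held a TSS of the member, and 2 were those of Prkag1 and Map4k2. The island without an NMI spanned 587 bp of Kmt2d (chr15:98834856-98835442), 35762 bp downstream of the TSS and over coding exon sequence, with 4.94 CpG per 100 bp and the ratio of 0.637. In the background, islands at a TSS overlapped an NMI in 94.5% of cases and islands without a TSS in 13.9%. Looser limits, again applied to each window (200 bp, 50% and 0.6), gave 59 islands, of which the same number, 10, overlapped an NMI. Kmt2a then had 24 islands in place of 1 and Kmt2d 16 in place of 3. Without an NMI were 23 of those in Kmt2a, 15 of them over coding exons, and 14 of those in Kmt2d, 13 of them over coding exons. The 14 include the Kmt2d island described above.

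The part of a gene's own CpGs that lay in NMIs at its start therefore varied. It was 1.75% of 856 CpGs in Kmt2d and 6.96% of 1178 in Kmt2a, the lowest values, and 18.2% of 417 in Kmt2b. Kdm6a, Paxip1 and Ncoa6 had 20.1%, 20.5% and 18.3% in 1.25%, 1.85% and 1.24% of their length. Outside the NMI, the gene bodies of Kmt2d, Men1 and Kmt2b held 2.14, 1.87 and 1.82 CpG per 100 bp, and those of Kdm6a and Kmt2c 0.440 and 0.560.

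The other genes of the pathway mostly had an NMI as well. For these lists and those below, the share over all protein-coding genes was 47.5%. All 4 genes of the common core had one, of 1256 bp at Wdr5, 1120 bp at Rbbp5, 1266 bp at Ash2l and 1331 bp at Dpy30. Their median of 1261 bp was below that of the members and close to the 1210 bp over the 10425 protein-coding genes with an NMI. All 6 other MLL-associated genes had one, with a median of 1488.5 bp: Hcfc1 (2681 bp) and Jund (2599 bp) were the widest, followed by Pagr1a (1539 bp), which encodes the partner of PTIP, and Psip1 (1438 bp), which encodes the LEDGF tether of menin. Hcfc2 had 1175 bp and Tasp1, the gene of the protease that cleaves MLL1, had 881 bp. In the SET1 complexes, which carry the CXXC protein CFP1 (Cxxc1), all 6 genes had an NMI, from 753 bp at Bod1 to 6776 bp at Setd1b. Setd1a, which like Setd1b encodes a catalytic subunit, had 2053 bp, Wdr82 1436 bp, Bod1l 1245 bp and Cxxc1 1020 bp.

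Of the 6 H3K4 demethylases, 5 had an NMI, with a median of 1282 bp. The other, Kdm5d, lies on chromosome Y, where the list holds no NMI for any gene. The widths were 2069 bp at Kdm5a, 1488 bp at Kdm5b, 1282 bp at Kdm1a, 1280 bp at Kdm5c and 1137 bp at Kdm1b. Neither paralogue of UTX had one. Uty also lies on Y, so neither it nor Kdm5d can be told apart from the rest of that chromosome. The list does not show whether Y was present in these cells. The TSS of Kdm6b, a second H3K27 demethylase, was 1553 bp from the nearest NMI. Of 10 genes known as fusion partners of MLL in leukaemia, 9 had an NMI, with a median of 1969 bp and the widest at Mllt3 (3854 bp), Mllt11 (2389 bp) and Afdn (2265 bp). Aff3 had none, and its nearest lay 66988 bp away. Among 6 target genes of MLL1 and menin, Cdkn1b (2840 bp), Cdkn2c (2331 bp), Meis1 (2196 bp) and Hoxa7 (273 bp) had an NMI, whereas Hoxa9 and Hoxa10 lay 4242 and 69 bp from one.

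For each member, the protein-coding gene with the most similar NMI in upstream extent, downstream extent and CpG density was sought among 10417 others, over the 1 library. For Kmt2a this was Kmt2e, a further member of the KMT2 gene family by name, with 1707 bp upstream, 1088 bp downstream and 7.30 CpG per 100 bp. The gene most like Kmt2d was Camk2n2, with 1485 bp upstream and 328 bp downstream. For Kmt2b it was Rfx3, for Kmt2c Irs2, for Men1 Dpy19l3, for Kdm6a Hnrnpa3, for Paxip1 Ehmt1 and for Ncoa6 Rnf149. The distance, in SD units over the genes with an NMI, ran from 0.0675 for Kdm6a to 0.320 for Kmt2c, which had the least close match.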

How the data were processed

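BioCAP was measured in 1 library of C127 cells. Reads had been mapped by the authors with Bowtie2 (mm10). They kept uniquely mapped reads, removed duplicates with SAMtools and called peaks with MACS (MACS2 in the submitters' processing notes). Tool versions and the role of the input in peak calling were not given in the sources used here. The values deposited by the authors were positions, 3 columns per NMI, with no counts or scores. Islands with weak capture can fall below the peak threshold, and keeping only uniquely mapped reads can remove near-identical copies.

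Starts, deposited counted from 0, are given counted from 1. TSSs were the 5′ ends of all 141730 GENCODE M21 transcripts on GRCm38, which shares its coordinates with mm10, on chromosomes 1 to 19, X and Y (13489 NMIs). A gene had an NMI when any TSS lay in one, and the widest was described. Upstream and downstream extents were taken from the outermost TSS in that NMI. Lower-case reference bases counted as repeats. Python 3.11.15, pandas 2.3.3 and NumPy 2.4.6 were used, and scripts were tested on simulated intervals. Named genes were the members, genes sharing or holding their NMIs, the most similar gene for each, and fixed lists, given in full up to 6 genes and otherwise by the 3 widest and those without an NMI. Members and lists were chosen with earlier results of these data known. Alternatives were other TSS distances, transcript sets, width limits, joined NMIs and island criteria.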

Additional observations from a re-analysis of the deposited data

How the results depend on the processing

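With 1 library, no library could be left out, and no depth or enrichment weighs one NMI against another. No paired analysis was possible because the results come from no test and from 1 library. Over 7 results and 26 alternatives, 23 left a median the same or a count within 1.5 times of that reported, and 3 did not. Not all of the 23 could have differed. Joining gaps of at most 250 bp merged no NMIs in the list, so those alternatives only repeated the reported values. All 8 genes had an NMI under each of the 6 alternatives tried for that count, but most of these could not have lowered it. Wider TSS distances can only add genes, every member's NMI was over 500 bp, and all 8 outermost TSSs already lay in an NMI. Only the limit to protein-coding transcripts and the distance from the TSS to the middle of the NMI could have lowered the count. The median downstream share of the NMI moved from 56.4% to 53.4% with starts of protein-coding transcripts only and to 44.8% when measured from the most downstream TSS in the NMI. The further NMIs fell from 3 to 1 when NMIs holding a TSS of any gene were left out, because 2 were promoter NMIs of neighbours, and to 2 with NMIs of at least 500 bp, which removes the intronic NMI of Kmt2d. The TSSs in an NMI numbered 32 with 1000 bp allowed. With protein-coding transcripts only, 21 TSSs lay in an NMI and 11 outside, against 30 in and 31 outside for all transcripts. The count was thus lower but the share in an NMI higher. Protein-coding genes with an NMI ranged from 9330 to 10753.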
